A study of Mus musculus with 8 samples.

Results

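AP-1 is the family of leucine-zipper transcription factors built from Fos and Jun proteins, and its genes are described here with 3 other genes that cells switch on within minutes of a stimulus. The genes sought were Fos, Fosb, Fosl1, Fosl2, Jun, Junb, Jund, Atf3, Egr1 and Ier3, taken by symbol from probe sets annotated to a single gene. Of these 10 genes, 9 were measured, out of 30743 named genes on the array. The only probe set that carries Junb also names Prdx2, so it could not be assigned and Junb is not analysed here. Each of the 9 had 1 probe set.

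Colon RNA came from 8 C57BL/6 mice with the genotype Rag1-/-, which have no mature T or B cells of their own. The control group of 5 mice was Treg-injected (regulatory T cells) with non-inflamed colons, and the group of 3 mice was Naïve T-injected with severely inflamed colons. T cells were given at 10 weeks of age and mice were killed 2 to 4 months later, while the labels put all mice at 4 to 5 months, which these times match only in part. The transferred cells are the mice's only source of mature T cells, and there was no uninjected group. Which region was taken is uncertain, since the protocol of the samples speaks of distal colon and the design text of a strip running the length from cecum to rectum. Replicates are called biological, and each array was taken as 1 mouse.

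Fos proteins (Fos, Fosb, Fosl1, Fosl2) cannot pair with themselves and bind DNA as dimers with a Jun protein, while Jun proteins can also pair with each other. Fos, Fosb, Egr1 and Atf3 are classic immediate early genes: MAP kinases and serum response factor start their transcription without new protein synthesis, and their mRNAs decay fast. In the gut the factors are known for responses to growth factors, injury and cytokines, and AP-1 drives genes of matrix proteases and inflammatory cytokines in epithelium, fibroblasts and myeloid cells. Atf3 encodes a stress-induced factor that can pair with Jun, Egr1 a zinc-finger factor, and Ier3 a short-lived stress-response protein that is a target of NF-kB.

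Promoter windows, from 250 bases before to 50 after the start, were held for 7 of the 9 genes in the RefSeq table of GRCm38.p6, with none for Fosl1 and Egr1. They are shown for Ier3 and Atf3, the genes that rose, and for Fos, the founding member, which did not pass the test. Letters are 5′ to 3′ on the gene's strand, with capitals for any motif found.
Ier3, chr17:35821463-35821762, plus strand: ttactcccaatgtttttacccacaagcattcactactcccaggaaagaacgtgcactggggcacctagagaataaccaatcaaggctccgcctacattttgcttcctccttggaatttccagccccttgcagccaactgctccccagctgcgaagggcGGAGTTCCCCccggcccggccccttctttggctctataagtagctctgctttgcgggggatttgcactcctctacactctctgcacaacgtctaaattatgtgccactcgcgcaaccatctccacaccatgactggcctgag
Atf3, chr1:191183284-191183583, minus strand: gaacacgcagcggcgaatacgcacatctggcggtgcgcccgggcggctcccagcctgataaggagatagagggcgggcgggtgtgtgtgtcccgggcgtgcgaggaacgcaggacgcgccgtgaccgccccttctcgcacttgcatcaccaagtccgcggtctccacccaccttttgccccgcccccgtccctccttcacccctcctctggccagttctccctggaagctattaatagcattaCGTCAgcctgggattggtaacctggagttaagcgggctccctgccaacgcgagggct
Fos, chr12:85473640-85473939, plus strand: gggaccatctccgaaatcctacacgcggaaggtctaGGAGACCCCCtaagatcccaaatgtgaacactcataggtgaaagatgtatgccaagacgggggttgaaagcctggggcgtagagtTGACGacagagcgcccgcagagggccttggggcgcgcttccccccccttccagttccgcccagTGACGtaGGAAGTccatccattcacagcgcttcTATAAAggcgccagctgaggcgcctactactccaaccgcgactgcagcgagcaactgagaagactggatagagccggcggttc

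The motifs were searched on both strands of each window. The AP-1 site TGACTCA was in none of the 7 windows and in 5.2% of all 32851 windows of this length, and the full cAMP response element TGACGTCA was in none of the 7 and in 1.79% of all. Only these exact letters were searched, so variant sites were not counted. The Atf3 window holds TTACGTCA and the Jun window, not shown, TGACATCA, each of which differs from the full element at a single base. The core TGACG, which lies within the full element, was in the windows of Atf3, Fos and Fosb and in 20.8% of all windows. In Fos it began 129 and 66 bases before the start, and in Atf3 the match lies on the opposite strand (CGTCA in the letters shown), starting 7 bases before it. An NF-kB site was in the windows of Ier3, Fos, Fosb and Fosl2 and in 8.46% of all windows, and the Ier3 match began 92 bases before the start. The CArG box bound by serum response factor (1.63% of all windows), the EGR1 site GCGTGGGCG (0.612%) and the GAS element TTCNNNGAA (8.3%) were in none of the 7. Elements more than 250 bases before the start lie outside the windows, and Egr1 had no window, so absence here is not absence from the promoters. The ETS core GGAAGT (23.8% of all windows) and the TATA box TATAAA (13.6%) were found in Fos only among the 7, the latter 33 bases before the start. A match is a description of these letters and not evidence that a factor binds there.

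The arrays shared a scale, with medians of 4.81 to 4.91. Inflamed replicate 2 stood apart: its correlation with the other inflamed arrays was 0.986 and 0.987, against 0.995 between those and 0.994 to 0.997 between pairs of controls (Pearson's r over 65956 transcript clusters, a description). Its positive control probe sets were also the least well separated from the negative ones (area under the curve 0.878, against 0.883 to 0.898 elsewhere). Xist, expressed from the inactive X chromosome, ranged from 10.7 to 11.3 in inflamed replicate 3 and in control replicates 3, 4 and 5, and from 4.11 to 4.53 elsewhere, so both groups held both patterns.

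Severely inflamed colon had more Ier3 and Atf3 RNA than control colon, and the other 7 measured genes, Fos, Jun and Egr1 among them, did not pass the test. A gene is said to have risen or fallen when the adjusted p was under 0.05 in limma with Benjamini-Hochberg adjustment over all 30743 genes. Of the 9 genes 2 rose and 0 fell, with 4 at an unadjusted p under 0.05. Over all genes tested, 8.05% rose and 5.03% fell (13.1% changed), and 28.5% had an unadjusted p under 0.05. The median difference of the 9 genes was 0.16 on the log2 scale, against -0.013 over all genes. Without inflamed replicate 2 the count that rose was 3, with Fosl1 added, and without inflamed replicate 1 it was 1.

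Ier3 had the largest change. On the log2 intensity scale, its controls were at 6.38, 6.43, 6.38, 6.15 and 6.28 in replicates 1 to 5, and the inflamed mice at 7.47, 6.92 and 7.96 in replicates 1 to 3. All 3 inflamed mice lay above all 5 controls, and they differed from each other by up to 1.04, far more than the controls, which spanned 0.28. The mean went from 6.32 ± 0.11 (SD, n = 5) to 7.45 ± 0.52 (SD, n = 3), a 2.18-fold rise of 1.13 ± 0.21 (limma SE, adjusted p = 0.0136). Without inflamed replicate 1 the difference was 1.12 and the call ended (adjusted p = 0.0521, with 0.00156 to 0.312 over its 19 alternatives).

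Atf3 rose by a smaller but more even step. Its controls were at 7.98, 7.45, 8.0, 7.84 and 7.75, and the inflamed mice at 8.59, 8.47 and 8.59. The inflamed values lay within 0.13 of each other and above every control, and control replicate 2 was the lowest control. The mean went from 7.80 ± 0.22 (SD, n = 5) to 8.55 ± 0.073 (SD, n = 3), a 1.68-fold rise of 0.75 ± 0.13 (limma SE, adjusted p = 0.00939). Ier3 and Atf3 were the only 2 of the 9 genes whose groups did not overlap, against 21.2% of all genes (12% with all inflamed values above the controls and 9.16% with all below). With the Xist pattern as a block the rises were 0.78 for Atf3 and 1.18 for Ier3, and within the arrays without Xist (2 against 2) they were 0.82 and 0.79, where neither call held (adjusted p = 0.299 and 0.312 in limma). Both calls also ended with the replicate number as a block (adjusted p = 0.135 for Atf3 and 0.222 for Ier3 in limma), and in either setting 0 of all genes passed. The change with Xist minus the change without was 0.90 for Ier3 and -0.086 for Atf3. The arrays with Xist held 1 inflamed mouse, so whether the rises differ by Xist pattern could not be judged.

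**Figure D1:**
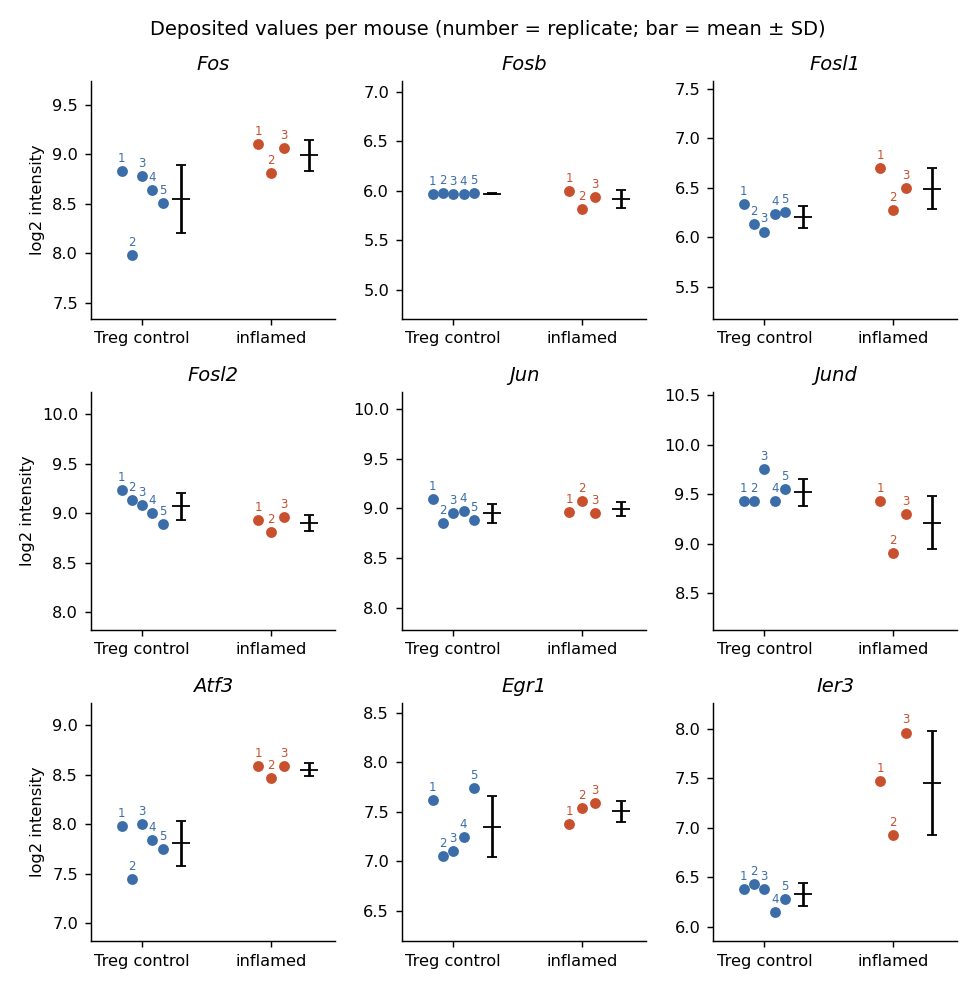
Log2 intensity (vertical axes, each spanning 2.4 units) of the 9 measured genes in each mouse, with blue points for the 5 Treg-injected controls, orange points for the 3 inflamed mice, replicate numbers beside the points and bars for mean ± SD. In the panels of Atf3 and Ier3 all inflamed points lie above all controls, and in the other 7 panels the groups overlap.

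Fos, the founding AP-1 gene, spread widely among the controls. The controls were at 8.83, 7.98, 8.78, 8.64 and 8.51, and the inflamed mice at 9.10, 8.81 and 9.06. Inflamed replicate 2 lay below control replicate 1, and control replicate 2 was the lowest array. The means were 8.55 ± 0.34 (SD, n = 5) and 8.99 ± 0.16 (SD, n = 3), a difference of 0.44 ± 0.20 (limma SE, 95% interval -0.017 to 0.90, adjusted p = 0.19).

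Fosl1 encodes Fra-1, a Fos protein without the strong activating end of Fos that is typical of migrating and wounded epithelium. Its controls were at 6.34, 6.14, 6.06, 6.24 and 6.26, and the inflamed mice at 6.70, 6.28 and 6.5. Inflamed replicates 1 and 3 were above all controls, and replicate 2 was within their range. The difference was 0.29 ± 0.10 (limma SE, adjusted p = 0.11). Fosl1 passed the threshold in 2 of 19 alternatives, without inflamed replicate 2 (0.39, adjusted p = 0.0346) and with array weights (0.41, adjusted p = 0.0165), over a range of adjusted p from 0.0165 to 0.598. Without inflamed replicate 1 the difference was 0.18 (adjusted p = 0.266 in limma).

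Fosl2 encodes Fra-2, a longer-lived Fos protein expressed in resting tissue. The controls were at 9.24, 9.14, 9.09, 9.0 and 8.89, and the inflamed mice at 8.93, 8.81 and 8.96. Inflamed replicates 1 and 3 lay between control replicates 4 and 5, and replicate 2 lay below all controls. The difference was -0.17 ± 0.081 (limma SE, adjusted p = 0.22). Fosb, a Fos protein known best from neurons, was nearly level, with controls from 5.97 to 5.98 and inflamed mice at 6.00, 5.82 and 5.94, a difference of -0.053 ± 0.040 (adjusted p = 0.419 in limma).

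Of the Jun proteins, Jun is the strong activator and Jund the form that is abundant in resting cells. Jun was at 9.10, 8.85, 8.95, 8.97 and 8.88 in controls and 8.96, 9.08 and 8.95 in inflamed mice, with every inflamed value inside the control range. Its difference was 0.050 ± 0.064 (limma SE, 95% interval -0.10 to 0.20, adjusted p = 0.635), and it turned to -0.044 with quantile normalization. Jund was at 9.43, 9.43, 9.75, 9.43 and 9.55 in controls and 9.43, 8.91 and 9.30 in inflamed mice. Inflamed replicate 1 tied the lowest controls and the other inflamed mice were lower. The difference was -0.31 ± 0.13 (limma SE, adjusted p = 0.172), and without inflamed replicate 2 it was -0.15.

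For some genes the deposited values are identical in several arrays. Jund has the same value in control replicates 1, 2 and 4 and inflamed replicate 1, Fosb in control replicates 1, 3 and 4, and Jun in control replicate 3 and inflamed replicate 3. Of all named genes, 39.7% have the same value in 3 or more arrays. The SD of such a gene, 0.0092 for Fosb in controls, may therefore be too small as a measure of the spread between mice.

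Egr1, which serum response factor and MAP kinases induce together with Fos, did not pass either. Its controls were at 7.62, 7.05, 7.10, 7.24 and 7.74, and the inflamed mice at 7.38, 7.54 and 7.59. The inflamed values all lay inside the control range, which spanned 0.69. The difference was 0.16 ± 0.17 (limma SE, 95% interval -0.25 to 0.56, adjusted p = 0.586).

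**Figure D2:**
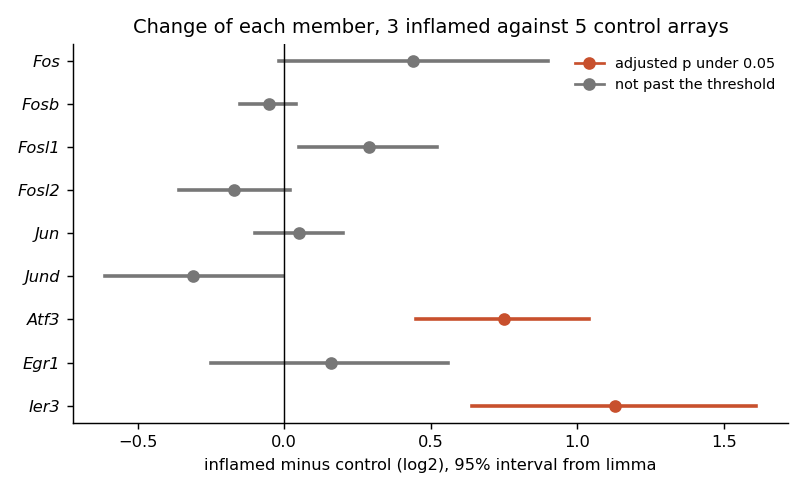
Difference between inflamed and control colon (horizontal axis, log2) for each of the 9 measured genes, with the 95% interval from limma (n = 3 and 5 arrays). Ier3 at 1.13 and Atf3 at 0.75 (orange) passed the threshold, and the grey genes lie between -0.31 and 0.44.

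With adjustment over the 7 pairs tested, changes differed in 3 of the 6 pairs of Fos genes, with Fosl2 or Fosb the lower of each pair. For 2 paralogs the log2 difference was taken on each array, which sets changes and not levels against each other, and was compared between groups by an exact two-sided permutation test over all 56 splits of the arrays. The 7 pairs among the measured genes were tested (6 Fos pairs and Jun with Jund), with Benjamini-Hochberg adjustment over them, and the smallest p possible is 0.0179. The plan was to adjust over 9 pairs, 2 of them with Junb. Over 9, with those 2 counted as not passing, none of the calls below would hold. Fos changed more than Fosl2, by 0.61 ± 0.17 (SE, exact permutation p = 0.0179, adjusted p = 0.0417, n = 5 and 3). Fosl1 also changed more than Fosl2, by 0.46 ± 0.12, and Fosb less than Fosl1, by -0.34 ± 0.085, at the same exact p and adjusted p. In these 3 pairs all 3 inflamed mice lay outside the range of the controls, which an exact p of 0.0179 already requires.

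Fos minus Fosb differed by 0.49 ± 0.16 (exact permutation p = 0.0536, adjusted p = 0.0938, n = 5 and 3), although all 3 inflamed mice lay above the controls. Fos minus Fosl1, at 0.15 ± 0.15, had an exact permutation adjusted p of 0.536 (n = 5 and 3), so these data do not tell the changes of Fos and Fosl1 apart. Fosb minus Fosl2 differed by 0.12 ± 0.068 (exact permutation adjusted p = 0.271, n = 5 and 3) and Jun minus Jund by 0.36 ± 0.21 (exact permutation adjusted p = 0.15, n = 5 and 3). With any 1 array left out, none of the 7 pairs passed after adjustment. The 7 arrays allow no p below 0.0286 or, without an inflamed array, 0.0476, so passing depends on how many pairs reach that limit.

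**Figure D3:**
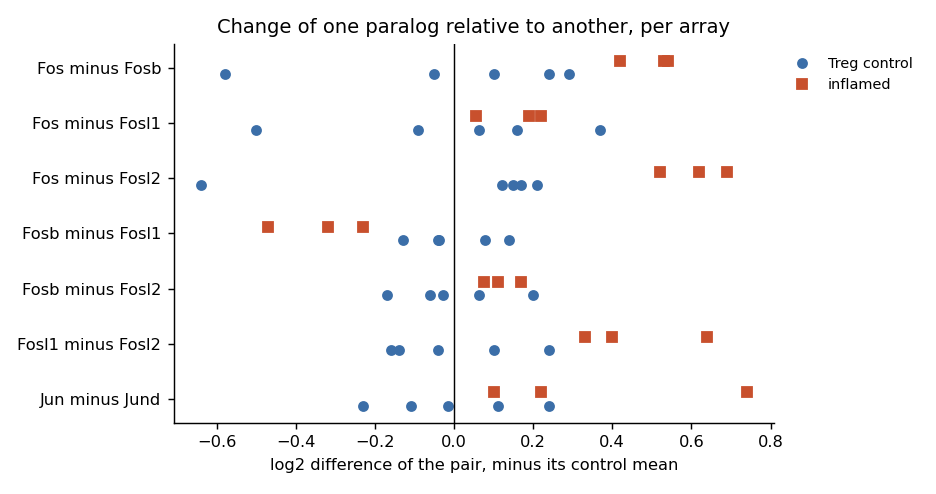
Log2 difference between 2 paralogs on each array, minus the mean of that difference in controls (horizontal axis), for 7 pairs, with blue circles for the 5 controls and orange squares for the 3 inflamed mice. For Fos minus Fosl2 and Fosl1 minus Fosl2 the squares lie to the right of all circles, and for Fosb minus Fosl1 to the left.

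Beyond the Fos and Jun genes, some partners and relatives among leucine-zipper factors rose. Of 17 measured genes 6 rose (3 with a floor on low values) and 0 fell, with a median difference of 0.22. The share that rose was 35.3%, against 8.05% of all genes, of which 5.03% fell. Batf2, an interferon-responsive factor that pairs with Jun, was at 7.72 to 8.48 in controls and 8.99 to 9.20 in inflamed mice and rose by 0.99 ± 0.17 (adjusted p = 0.0106 in limma). Cebpd and Cebpb, factors of the acute-phase and myeloid response, rose by 0.81 ± 0.20 (adjusted p = 0.0396 in limma) and 0.43 ± 0.098 (adjusted p = 0.03 in limma). The Cebpd call ended without any 1 array other than inflamed replicate 1 (adjusted p = 0.0533 to 0.106), and the Cebpb call (adjusted p = 0.0617 to 0.0705) when inflamed replicate 1 or 3, or control replicate 1, 2 or 4, was left out. The count that rose was 2 to 8 with 1 array left out, lowest without control replicate 4 or inflamed replicate 3, 3 without control replicate 1 or 2 or inflamed replicate 1, and highest without inflamed replicate 2.

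Most other immediate early genes did not pass, as most genes on the array did not. Of this list 20.0% rose and 2.86% fell, against 8.05% and 5.03% of all genes. Of 35 measured, 7 rose (4 with quantile normalization and 11 with array weights) and 1 fell (2 in either setting), with a median difference of 0.11, and 27 did not pass. Among those, Klf10 had the largest difference (0.79, adjusted p = 0.0573 in limma), followed by Plk3 (0.42), while Egr2 (0.15), Ier2 (0.11), Nr4a1 (-0.11), Zfp36 (0.16) and Btg2 (0.11) were nearer 0. Phlda1, a growth-factor-induced gene that damps signalling, rose by 1.11 ± 0.12 (adjusted p = 0.0017 in limma), with controls at 7.0 to 7.48 and inflamed mice at 8.22 to 8.48. The matricellular gene Ccn1 rose by 0.94 ± 0.20 (adjusted p = 0.0243 in limma) and Tiparp, a target of the aryl hydrocarbon receptor, by 0.82 ± 0.17 (adjusted p = 0.0199 in limma). The gene that fell was Sgk1, a kinase of sodium uptake, by 0.75 ± 0.14 (adjusted p = 0.0131 in limma), named after its value was seen because it was the only fall. The Ccn1 call ended (adjusted p = 0.0554 to 0.07) on leaving out the same arrays as for Cebpb, 1 at a time, and the Tiparp call without control replicate 5 (adjusted p = 0.0522). Without inflamed replicate 1 the count that rose was 4, and without inflamed replicate 2 there were 2 that fell.

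Among the MAP kinases and serum-response partners that feed AP-1, 7 of 25 measured genes rose and 1 fell, with a median difference of 0.060. The shares were 28.0% and 4.0%, against 8.05% and 5.03% of all genes. Map2k4, a kinase that activates JNK and p38, rose by 0.74 ± 0.072 (adjusted p = 0.0012 in limma), with controls at 8.12 to 8.42 and inflamed mice at 8.92 to 9.0. Map2k3 and Map2k6 both activate p38 and went in opposite directions. Map2k3 rose by 0.65 ± 0.13 (adjusted p = 0.0162 in limma, and 0.0635 without inflamed replicate 1). Map2k6 fell by 0.90 ± 0.15 (adjusted p = 0.0101 in limma), from 7.14 to 7.56 in controls to 6.16 to 6.75 in inflamed mice. Srf itself was at a difference of 0.041 ± 0.061. Without inflamed replicate 1 the count that rose was 4, and without inflamed replicate 2 there were 2 that fell.

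Feedback inhibitors of the same kinases rose in part, with 3 of 15 measured genes higher, 0 lower and a median difference of 0.14. The share that rose was 20.0%, against 8.05% of all genes, of which 5.03% fell. The count that rose was 6 with dim genes left out of the fit and 5 with array weights. Dusp6, a phosphatase that switches off ERK, rose by 1.14 ± 0.21 (adjusted p = 0.0125 in limma), from 7.79 to 8.41 in controls to 8.85 to 9.52 in inflamed mice. Spry4 rose by 0.47 ± 0.087 (adjusted p = 0.0141 in limma, and 0.0555 without inflamed replicate 1) and Spred1 by 0.34 ± 0.037 (adjusted p = 0.00182 in limma), both inhibitors of Ras-ERK signalling. Dusp1, itself an immediate early gene, did not pass (0.58 ± 0.17, adjusted p = 0.0638 in limma), although the lowest inflamed value lay just above the highest control, both 8.61 when rounded.

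Of 27 measured textbook targets of AP-1, 15 rose and 0 fell, with a median difference of 0.79, and 14 rose without inflamed replicate 2. The share that rose was 55.6%, against 8.05% of all genes, of which 5.03% fell. In both groups 3 of the 27 had means under 4.88, the median of all transcript clusters. Il1b, the interleukin-1 beta gene, was at 5.03 to 5.47 in controls and at 8.35, 8.78 and 10.5 in inflamed mice, a rise of 4.04 ± 0.44 (adjusted p = 0.00187 in limma). Mmp10, a matrix protease, rose by 2.64 ± 0.40 (adjusted p = 0.00604 in limma) and Cxcl2, a neutrophil chemokine, by 2.55 ± 0.34 (adjusted p = 0.00377 in limma). The mean control levels of Mmp10 (4.42) and Cxcl2 (4.83) were under the median of all transcript clusters, 4.88, and that of Il1b (5.18) was close to the medians of the negative control probe sets on the control arrays (4.92 to 5.11), so all 3 sizes are uncertain. These genes have other regulators too, NF-kB among them, and the list was drawn from textbook knowledge with earlier results of these data known.

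**Figure D4:**
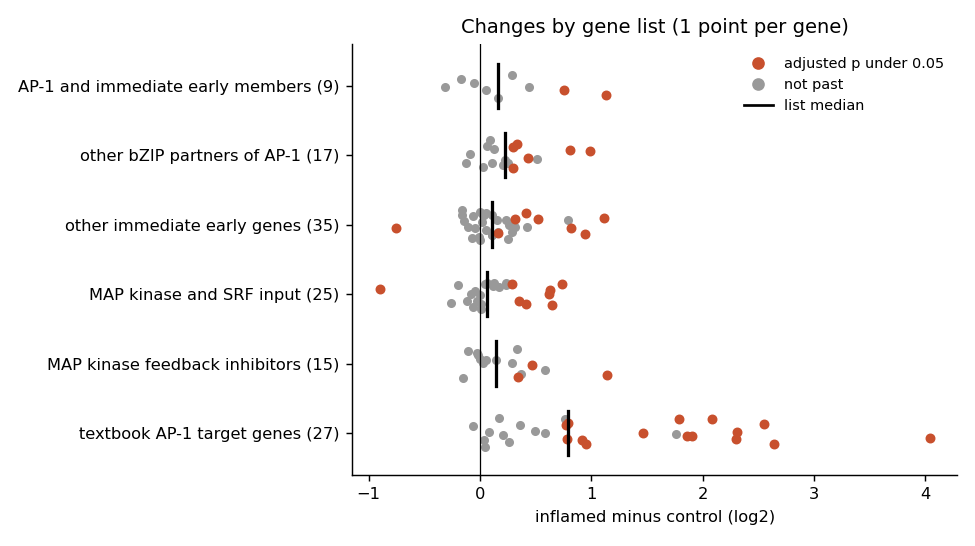
Difference between inflamed and control colon (horizontal axis, log2) of every measured gene in the 9 AP-1 and immediate early genes and in 5 related lists (numbers of genes in brackets), with orange for an adjusted p under 0.05, grey for the rest and a black bar at the list median. The medians run from 0.060 for the MAP kinase list to 0.79 for the AP-1 targets, with the 9 genes at 0.16.

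In whole tissue, fewer cells of a type and less RNA per cell cannot be told apart, and marker genes of several cell types moved with the groups. Colonocyte markers, all 12 above the array's dim limit of 4.88, fell in 6 of 12 cases and rose in 1, with a summed linear intensity of 69800 to 76100 in controls and 55800 to 66800 in inflamed mice. Smooth muscle markers fell in 7 of 10 cases and rose in 0 (15500 to 22300 in controls, 10400 to 11900 in inflamed mice). Markers of monocytes and macrophages rose in 11 of 12 cases (1460 to 1690, and 7960 to 10300), those of neutrophils in 5 of 10 (470 to 1800, and 3300 to 9040), and those of T cells in 9 of 10 (387 to 429, and 890 to 1860), with 0 falling. Ly6g was the brightest neutrophil marker in every control, at 7.5 to 10.58, and so weighs most in the control sums of that list. Its own change did not pass (adjusted p = 0.107 in limma). Ly6c2 (11.73 to 12.42) and Lyz2 (11.47 to 11.76) were the brightest monocyte and macrophage markers in every inflamed mouse. They weigh most in the inflamed sums of that list, whose median difference was 1.15 on the log2 scale. Fibroblast markers rose in 2 and fell in 1 of 9 cases (1720 to 2220, and 2200 to 2970), and those of endothelial cells changed in 0 of 10 (620 to 651, and 624 to 709), with 2 at an unadjusted p under 0.05 in limma. Over all genes 8.05% rose and 5.03% fell. No list had all its markers under the dim limit, and 1 T cell marker was under it in both groups. That limit is itself below the medians of the negative control probe sets (4.92 to 5.11). On the control arrays the T cell markers averaged 5.15 to 5.29 and the neutrophil markers 5.04 to 5.26. Both are close to those medians, so the sizes of the rises in these 2 lists are uncertain. The part of these shifts in the values of Ier3, Atf3 and the other genes was not tested.

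Ier3 and Atf3 had the widest ranges over the 8 arrays, and the genes with the most similar profiles were sought among all named genes. Likeness was the root mean square difference over the 8 arrays after subtracting each gene's control mean. A shared pattern over the inflamed mice therefore follows from the choice of genes and is not a separate result. Closest to Ier3 were Slc16a3, a lactate exporter (0.103), the chemokine gene Ccl3 (0.106) and Csf3r, the receptor for the neutrophil growth factor G-CSF (0.125), which is also one of the neutrophil markers. All of them were highest in inflamed replicate 3 and lowest, among inflamed mice, in replicate 2. Slc16a3, for example, was at 6.2 to 6.31 in controls and at 7.34, 6.80 and 7.76 in inflamed mice. The neutrophil list as a whole was also highest in inflamed replicate 3 but lowest in replicate 1. Its mean values were 6.67, 7.16 and 8.48 in inflamed replicates 1 to 3. Closest to Atf3 were Mak16, which acts in ribosome assembly (0.105), the glycosyltransferase gene B4galt6 (0.113) and the small GTPase gene Rap1b (0.117), each nearly level among inflamed mice. Rap1b, for example, was at 9.55 to 9.72 in controls and at 10.44, 10.42 and 10.42 in inflamed mice. Of these, Ccl3 was dim in controls (4.62), and its call ended in 5 of 8 fits with 1 array left out (control replicate 2, 3, 4 or 5 or inflamed replicate 1).

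**Figure D5:**
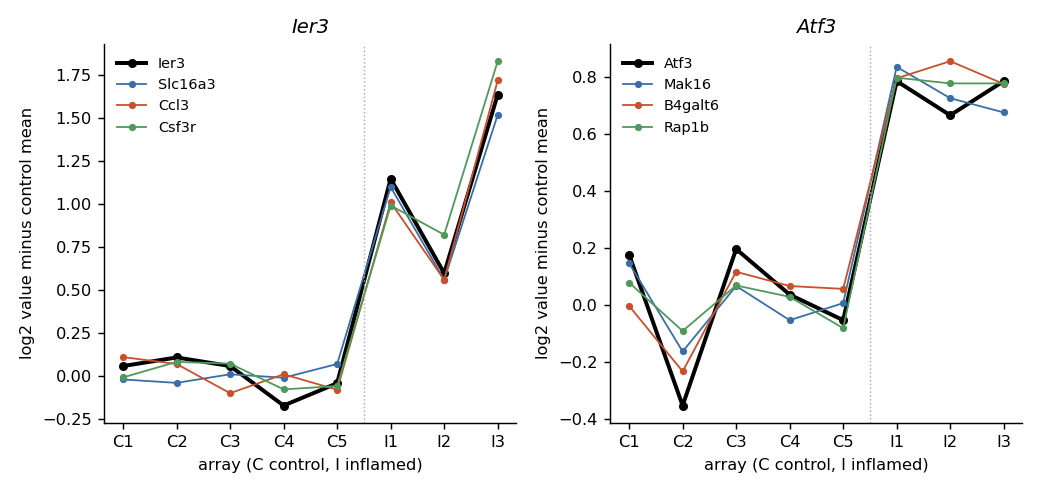
Log2 value minus the gene's control mean (vertical axes) across the 5 control (C) and 3 inflamed (I) arrays for Ier3 (left) and Atf3 (right), in black, with their 3 most similar genes in colour. The Ier3 group differs among inflamed mice and peaks in I3, while the Atf3 group is nearly level across I1 to I3.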

How the data were processed

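Members and gene lists were chosen with earlier results of these data known. The authors deposited 1 log2 intensity per probe set and array, and the submitters' processing notes name RMA and Affymetrix Expression Console. The array model, genome build, versions and settings were not given in the sources used here. Values ran from 1.89 to 14.56, which fits a log2 scale. RMA compresses low signals, so changes near background are understated, and arrays give no counts, so their number limits precision. Probe sets were named through the platform annotation and the RefSeq gene table of GRCm38.p6. Of 32750 annotated probe sets, 30604 had 1 symbol, 612 several symbols of 1 gene and 1534 several genes (unnamed), and 33206 transcript clusters had no symbol. The brightest probe set per gene was used.

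Groups were compared with limma 3.58.1 in R 4.3.3 (lmFit, eBayes, no covariate) over 30743 genes, with Benjamini-Hochberg adjustment and a threshold of 0.05. The scripts were tested on simulated data. Named were all members, the 3 called genes with the largest change per pathway list and the 3 likest genes to the 2 members of widest range. The 2 planned pairs with Junb could not be tested, so the pair adjustment ran over 7 pairs and not over the planned 9. Klf10, Plk3, Egr2, Ier2, Nr4a1, Zfp36, Btg2, Srf and Dusp1 were added after their values were seen.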

Additional observations from a re-analysis of the deposited data

Results flagged for a closer look

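In a screen of the 9 measured AP-1 and immediate early genes and the list genes chosen by rule, 44 genes in all, 1 gene had a control far from the other 4 controls. For Map2k4, control replicate 1 (8.42) was apart from the others (8.12 to 8.17), with a gap of 0.84 of the group's range against a limit of 0.71. Chance flags about 1 in 20 groups. Its rise was 0.72 to 0.80 with any 1 array left out. None of the 9 genes had such a control.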

How the results depend on the processing

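The sample titles do not say whether the numbers of the replicates pair the mice. The deviations of same-numbered arrays correlated at -0.285, -0.053 and 0.069, and those of other-numbered arrays at -0.218 to 0.347. Arrays of the same number in both groups also shared the Xist pattern. So few values cannot decide whether the mice were paired. With the replicate block, and within the 4 arrays without Xist, limma called 0 of all 30743 genes (4915 and 4595 at an unadjusted p under 0.05), so 0 genes rose and 0 fell in every list. There Atf3 was at 0.74 (adjusted p = 0.135) and 0.82 (adjusted p = 0.299), and Ier3 at 1.05 (adjusted p = 0.222) and 0.79 (adjusted p = 0.312). In the other 9 settings that keep all arrays both rose. Fosl1 passed with array weights (0.41), and Jun turned to -0.044 with quantile normalization without passing. Other immediate early genes that rose numbered 4 with quantile normalization and 11 with array weights, and 2 fell in each, as 2 did in the MAP kinase list. A floor on low values left 3 bZIP partners, and 6 (dim genes left out) or 5 (array weights) feedback inhibitors rose. Quantile normalization gave 51.7% rises among all called genes against 61.5%.

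With each array left out in turn, differences ran from 0.66 to 0.80 for Atf3, 0.87 to 1.39 for Ier3, 0.30 to 0.53 for Fos, 0.18 to 0.39 for Fosl1, -0.22 to -0.12 for Fosl2, -0.092 to -0.0028 for Fosb, 0.0082 to 0.089 for Jun, -0.41 to -0.15 for Jund and 0.080 to 0.25 for Egr1. The AP-1 genes that rose numbered 1 to 3, bZIP partners 2 to 8 (0 to 1 fell), other immediate early genes 4 to 9 (1 to 2 fell), MAP kinase genes 4 to 6 (1 to 2 fell), feedback inhibitors 3 to 4 and AP-1 targets 12 to 16. Pair differences were 0.45 to 0.66 for Fos minus Fosl2, -0.40 to -0.28 for Fosb minus Fosl1 and 0.37 to 0.52 for Fosl1 minus Fosl2. The 3 pair calls held under quantile normalization, while a floor and the mean over probe sets leave these genes' values as they are and test nothing here. Except as named, the causes were not tested.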

Other observations

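Among the inflamed mice, replicate 2 had the lowest value of the group in 7 of the 9 AP-1 and immediate early genes and in 21 of the 35 other immediate early genes (60.0%), against 43.8% of all named genes. Replicate 3 was the highest inflamed array in 21 of those 35 (60.0%, against 29.0% of all named genes), but in 4 of the 9, as was replicate 1. Among controls, replicate 2 was the lowest in 4 of the 9, Fos, Atf3, Egr1 and Jun, and in 12 of the 35 (34.3%, against 15.1% of all named genes). Control replicate 4 was the lowest in another 12 of the 35, but in 1 of the 9 (16% of all named genes). These shares were looked for after the values were seen, and genes of 1 array are not independent. The files give no time between death and freezing, and the part of tissue handling was not tested.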
